A study of Mus musculus with 18 samples.

Results

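The comparison described here asks whether nuclear RNAs of mouse embryonic stem cells are lost at a different pace after transcription is stopped when the cells carry a conditional knockout (cKO) of Ythdc1. It was chosen by the sample labels, as the change between 0 and 6 h of actinomycin D in the libraries labelled Ythdc1 cKO minus the same change in the Ythdc1 control libraries, and it uses 8 of the 18 libraries in the series. The groups, with 2 libraries each, were Ythdc1_cKO at 6 h, Ythdc1_cKO at 0 h, Ythdc1_Control at 6 h and Ythdc1_Control at 0 h. All 8 came from C57BL/6 embryonic stem cells kept in serum with LIF, the GSK3 inhibitor CHIR99021 and the MEK inhibitor PD0325901, and cultured for 48 h before the treatment; the 6 h cells then had 5 µg/ml of actinomycin D for 6 h. RNA came from the nuclear fraction, with ribosomal RNA removed and 0.1 µl of ERCC spike-in RNA added per sample. How and when the conditional allele was deleted, and whether the paired libraries of a group were separate cultures, is not given in the sources used here, and p-values reflect variation among these libraries alone and may measure technical error. Other libraries of the series enter outside this contrast. Ythdc1_cKO and Ythdc1_Control libraries after 3 h of 5 µg/ml actinomycin D share the fit and give the 3 h values. Mettl3_KO1, Mettl3_KO2 and Mettl3_Control libraries, without actinomycin D, give a separate readout. Of 54446 genes in the count table, 17900 had enough reads to be tested.

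YTHDC1 is the nuclear reader of N6-methyladenosine (m6A), the methyl mark that the METTL3 complex places on adenosines of nascent RNA. It is known to take part in splicing, in nuclear export and in the turnover of chromatin-associated RNAs. Actinomycin D blocks RNA polymerases, so levels in the hours that follow show what is left of RNA made earlier, and the nuclear fraction adds export to decay among the ways an RNA can leave the sample.

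For each gene, the decay difference is the log2 change between 6 h and 0 h in the libraries labelled cKO minus that in the control libraries. A positive value means that less was lost, or more gained, in the cKO libraries. Reads were scaled by TMM, a factor that sets the typical gene of a library to no change. A gain is therefore relative to the typical gene, and whether any new RNA was made was not tested. Levels are CPM, reads of a gene relative to library size on that scale, and errors of log2 values are standard errors (SE). Adjusted p-values come from edgeR's quasi-likelihood test of the interaction over all genes tested, and a gene is called when that value is below 0.05. In nuclear RNA from a cell population, fewer cells with an RNA and less RNA per cell cannot be told apart.

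Gene reads per library were 4950973 and 17675289 for cKO at 6 h, 9088173 and 8723612 for cKO at 0 h, 9638107 and 12239266 for control at 6 h, and 8840925 and 12524328 for control at 0 h. The ERCC share of gene reads was 0.185% and 0.189% at 6 h against 0.101% and 0.0961% at 0 h in the cKO libraries, and 0.129% and 0.130% at 6 h against 0.0795% and 0.0772% at 0 h in the control libraries. Reads outside annotated genes numbered 0.253 and 0.249 per gene read in cKO at 6 h and 1.24 and 1.19 at 0 h, against 0.306 and 0.306 in control at 6 h and 1.07 and 1.05 at 0 h. All 8 stem cell markers looked for (Pou5f1, Nanog, Sox2, Zfp42, Esrrb, Klf4, Tdgf1, Dppa5a) were found in every library, none at 0.

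Ythdc1 itself was checked first. It had 19.2 and 18.7 CPM in the cKO libraries at 6 h and 143 and 120.4 CPM at 0 h, against 51.3 and 47.2 CPM in the control libraries at 6 h and 145 and 132 CPM at 0 h. The genotypes overlapped at 0 h, and both cKO libraries lay below both control libraries at 6 h. The difference between cKO and control libraries was -0.07 ± 0.08 log2 at 0 h (adjusted p 0.557) and -1.38 ± 0.10 at 6 h (adjusted p 1.08e-13), which gave a decay difference of -1.31 ± 0.13 (adjusted p 1.25e-09). Because the targeted gene was not called lower in the cKO libraries before actinomycin D, the groups are named by their labels throughout, as the libraries labelled cKO. Whole-gene counts cannot show whether one exon is missing from the transcripts.

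Between the genotypes, 3422 genes were called: 1749 (9.77%) had a higher and 1673 (9.35%) a lower decay difference in the libraries labelled cKO. With library size alone in place of TMM factors, the split was 2938 higher and 993 lower, and the median of all genes was 0.11, against -0.03 with TMM factors. At least 2-fold differences were called for 310 genes (1.73%) in the higher and 338 (1.89%) in the lower direction. Without a test, the 4 possible changes of one genotype lay wholly above those of the other for 3500 genes (19.6%) and wholly below for 3876 (21.7%).

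The largest set of higher genes were RNAs lost in both genotypes, relative to the typical gene, and lost less in the libraries labelled cKO. Of the 1749, 845 had negative changes in both genotypes, 506 had a positive change in cKO and a negative one in control libraries, and 398 had positive changes in both. The lower genes were mostly RNAs whose nuclear share grew in both genotypes but grew less in cKO libraries. Of the 1673, 899 had positive changes in both, 426 a negative change in cKO and a positive one in control libraries, and 348 negative changes in both. Changes of one sign in both genotypes were also common among the 14478 genes not called. Of these 6103 had negative and 6266 positive changes in both.

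**Figure D1:**
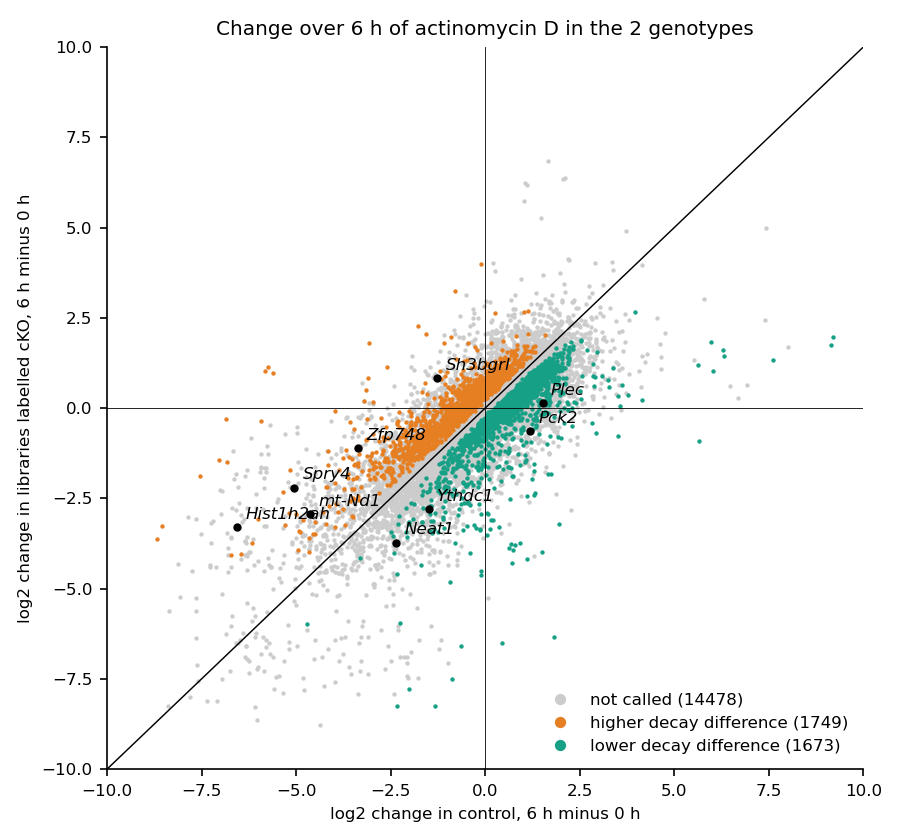
Log2 change between 6 h and 0 h of actinomycin D in the libraries labelled cKO (vertical axis) against that in control libraries (horizontal axis), 1 point per tested gene, with called genes coloured by direction. Called higher genes such as Hist1h2ah and Zfp748 lie above the diagonal at the left, where both genotypes lost RNA, and called lower genes such as Plec lie below it.

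Replication-dependent histone mRNAs led the higher genes. These are the intronless, non-polyadenylated mRNAs that supply histones in S phase, and their 3′ end is a conserved stem-loop bound by SLBP. Of 67 listed histone genes 62 were tested, and 25 of them were called higher and 0 lower, against 9.77% and 9.35% of all tested genes. The median decay difference was 0.77, against -0.03 for all genes. Histone mRNAs were lost steeply in both genotypes, with median changes of -3.22 log2 in cKO and -3.98 in control libraries. Without replicate 2 of cKO at 6 h, the deeper library of that group, 13 were called higher and the median was 0.75; under the other scalings 21 to 33 were called higher and 0 lower.

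Where the stem-loop could be read from the annotated transcript it is shown for the called members and for Hist1h3c, which was not called (-0.11 log2). Each line gives 26 bases on the RNA strand of the mm10 genome (GENCODE M21 transcripts), with the 16-base stem-loop in capitals between 5-base flanks.
Hist1h2ad, chr13:23574895-23574910, plus strand: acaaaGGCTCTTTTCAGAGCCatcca
Hist1h2ag, chr13:22042483-22042498, minus strand: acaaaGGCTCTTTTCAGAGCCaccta
Hist1h4h, chr13:23531458-23531473, plus strand: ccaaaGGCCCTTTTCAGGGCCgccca
Hist1h2ab, chr13:23751572-23751587, plus strand: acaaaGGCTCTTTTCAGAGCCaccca
Hist1h2bm, chr13:21722506-21722521, plus strand: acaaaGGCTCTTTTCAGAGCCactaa
Hist1h3c, chr13:23745047-23745062, minus strand: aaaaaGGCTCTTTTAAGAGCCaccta
The search was for GG, any 4 bases, TTT, any 5 bases and CC on the transcript strand, with 6 paired stem bases, in the last 120 bases of annotated transcripts, and it matched 24 of 55450 genes (0.0433%). Among the 62 tested histone genes, 19 held the motif, in 5 distinct 16-base versions. The version in Hist1h2ad was also held by genes not called, among them Hist1h3b (0.63), Hist1h2bf (0.15) and Hist1h2bj (-0.11). Of these 19 genes 5 were called higher and 0 lower, with a median of 1.07. The other 43, whose annotated transcripts do not hold these letters in that window, had 20 called higher and 0 lower, with a median of 0.70.

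Hist1h2ah, a gene for histone H2A (ENSMUSG00000069302.5, chr13:22035164-22035568), had the highest decay difference of the genes named by rule. It had 1.83 and 2.53 CPM in the cKO libraries at 6 h and 21.2 and 25.5 CPM at 0 h, against 0.226 and 0.540 CPM in the control libraries at 6 h and 38.3 and 39.0 CPM at 0 h. Control libraries began higher and ended lower than the cKO libraries, with no overlap at either time. The decay difference was 3.26 ± 0.46 (adjusted p 1.82e-06), with log2 changes of -3.30 in cKO and -6.56 in control libraries. Only 53 reads in the cKO and 8 in the control libraries lie behind the 6 h levels, so the size is imprecise.

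Hist1h4h, which encodes histone H4 and whose stem-loop is printed above, was measured on more reads. It had 92.5 and 121 CPM at 0 h, 36.1 and 33.7 CPM at 3 h and 17.1 and 15.9 CPM at 6 h in the cKO libraries, against 146 and 139 CPM at 0 h, 24.1 and 24.5 CPM at 3 h and 8.13 and 8.19 CPM at 6 h in the control libraries. The cKO libraries were below the control libraries at 0 h and above them at 6 h. Its decay difference was 1.41 ± 0.17 at 6 h (adjusted p 1.14e-07), and over the first 3 h, with the same 0 h libraries, it was 0.93 ± 0.13 (adjusted p 1.74e-06).

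The H4 genes Hist1h4c and Hist1h4j followed the same order. Hist1h4c had 15.7 and 14.6 CPM in the cKO libraries at 6 h and 69.6 and 71.3 CPM at 0 h, against 7.68 and 6.93 CPM in the control libraries at 6 h and 83.1 and 79.8 CPM at 0 h, a decay difference of 1.24 ± 0.17 (adjusted p 7.26e-07). Hist1h4j reached 2.28 ± 0.36 (adjusted p 2.04e-05), with 3.87 and 4.72 CPM in cKO and 2.03 and 0.990 CPM in control libraries at 6 h. Both genes crossed over between 0 and 6 h as Hist1h4h did. At 3 h Hist1h4c was not called (0.21 ± 0.13, adjusted p 0.302), and Hist1h4j was higher (0.82 ± 0.28, adjusted p 0.0361). Hist1h2ad (2.94 ± 0.69, adjusted p 0.00177), the H3 gene Hist1h3h (2.40 ± 0.65, adjusted p 0.00699) and Hist1h2ag (2.00 ± 0.44, adjusted p 0.000983) were called on few reads, with 4 and 5 control reads at 6 h for Hist1h2ad and Hist1h3h. All 3 lost the call without replicate 2 of cKO at 6 h, with adjusted p 0.0644 for Hist1h2ad, 0.0592 for Hist1h3h and 0.253 for Hist1h2ag, and Hist1h3h also without replicate 1 of control at 6 h (adjusted p 0.0594). At 3 h, against the same 0 h libraries, Hist1h3h had a decay difference of -1.56 ± 0.39 (adjusted p 0.00318), opposite in sign to that at 6 h. Hist1h2ad (-0.20 ± 0.50, adjusted p 0.842) and Hist1h2ag (0.14 ± 0.35, adjusted p 0.845) were not called at 3 h. Hist1h2ah was higher then (0.84 ± 0.27, adjusted p 0.0215). The linker histone genes Hist1h1c (0.47), Hist1h1d (0.67) and Hist1h1e (0.47) were also among the 25, with smaller differences than the H2A and H4 genes above. Histone genes are near-identical copies and were counted on uniquely placed reads, so which copy a read came from is uncertain, as is the strand for Hist1h2ah, Hist1h2ad and Hist1h2ag, which overlap genes on the other strand.

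**Figure D2:**
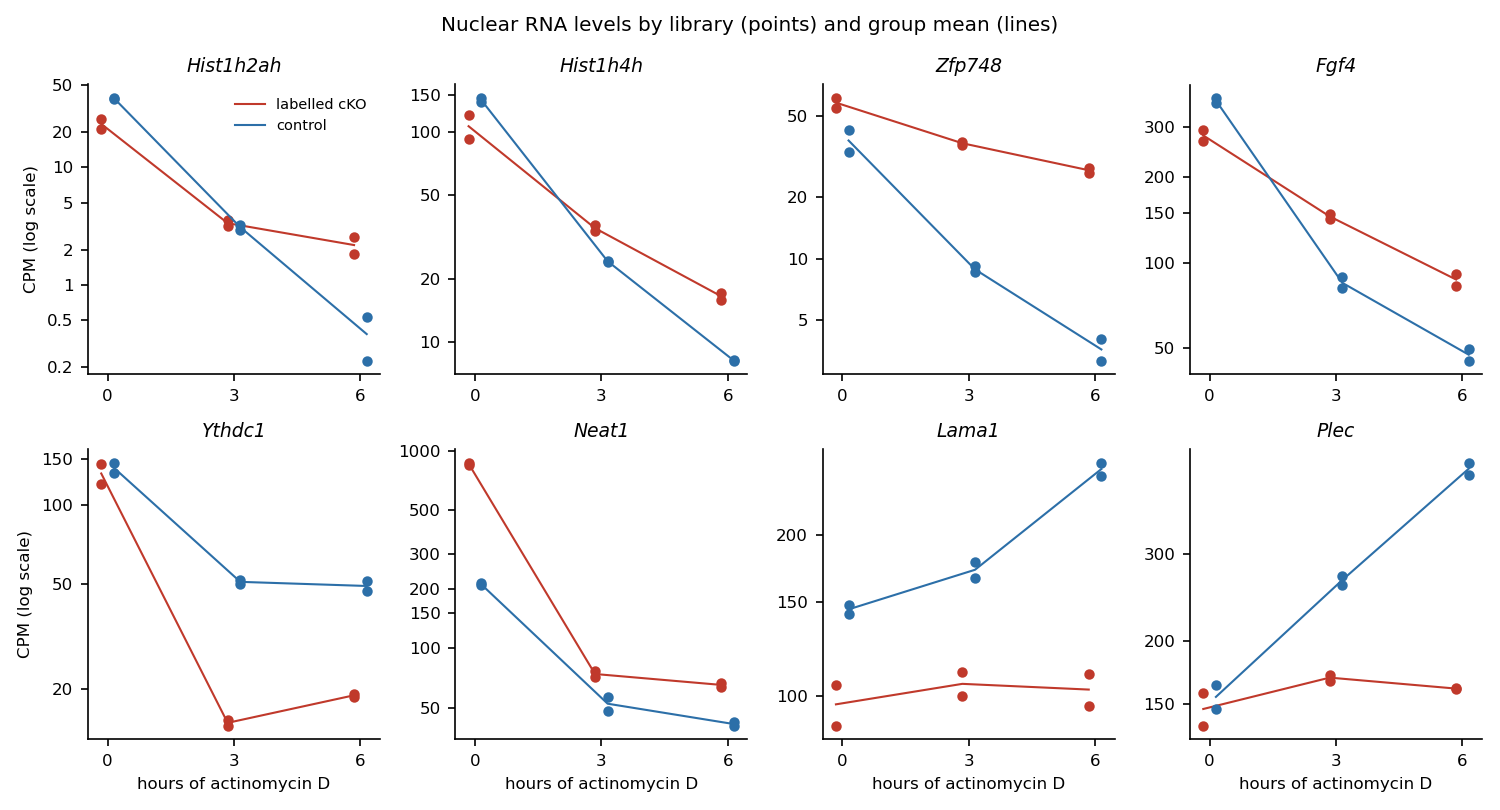
CPM on a log axis at 0, 3 and 6 h of actinomycin D for 8 genes, with the libraries labelled cKO in red at the left of each pair and control libraries in blue; points are single libraries. Histone and zinc finger mRNAs end higher in the cKO libraries, Ythdc1, Lama1 and Plec end lower, and Neat1 starts higher in cKO and comes closer to control by 6 h.

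Zinc finger genes named Zfp were the list with the most higher genes. Most encode C2H2 zinc finger proteins, many with a KRAB domain that recruits TRIM28 to silence transposable elements, and their mRNAs are known to turn over quickly. Of 361 tested, 91 (25.2%) were called higher and 8 lower, with a median of 0.37, and the changes of the genotypes did not overlap for 158 higher and 31 lower members, against 19.6% and 21.7% of all genes. Leaving out 1 library gave 66 to 95 higher and 6 to 11 lower, and G+C-corrected offsets gave 91 higher and 9 lower with a median of 0.29.

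Zfp748 (ENSMUSG00000095432.9, chr13:67538641-67553830) had 27.9 and 26.4 CPM in the cKO libraries at 6 h and 61.5 and 54.9 CPM at 0 h, against 3.16 and 4.05 CPM in the control libraries at 6 h and 42.6 and 33.4 CPM at 0 h. Levels in the cKO libraries were the higher ones at both times, and the gap widened by 6 h. Its decay difference was 2.25 ± 0.21 (adjusted p 4.03e-10), and at 3 h it was 1.42 ± 0.17 (adjusted p 4.91e-08). Zfp961 had 51.2 and 53.3 CPM in the cKO libraries at 6 h and 139.8 and 136 CPM at 0 h, against 19.5 and 20.2 CPM in the control libraries at 6 h and 129 and 122 CPM at 0 h, a decay difference of 1.26 ± 0.11 (adjusted p 1.98e-10). Zfp141 reached 1.03 ± 0.12 (adjusted p 2.08e-08), with 64.2 and 61.1 CPM in cKO and 26.4 and 27.6 CPM in control libraries at 6 h. At 0 h the cKO libraries were also above the control libraries for both, by less. Zfp97 had a decay difference of 2.37 ± 0.40 (adjusted p 3.35e-05) and overlapping genotypes at 0 h. Zfp40, at 2.28 ± 0.61 (adjusted p 0.0233), rested on unequal control libraries of 2.60 and 0.360 CPM at 6 h, and it lost the call without either control 0 h library (adjusted p 0.0875 without replicate 1 and 0.0725 without replicate 2) or either cKO 6 h library (0.0562 and 0.136). The 8 called lower were Zfp106, Zfp462, Zfp110, Zfp692, Zfp609, Zfp318, Zfp335 and Zfp688, between -0.31 and -1.003. Family members share repeated zinc finger sequence and are measured on their unique parts, and Zfp748, Zfp961 and Zfp141 overlap genes on the other strand.

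Spry4, an inhibitor of FGF receptor to ERK signalling, had 6.32 and 5.64 CPM in the cKO libraries at 6 h and 28.1 and 26.0 CPM at 0 h, against 0.565 and 0.0900 CPM in the control libraries at 6 h and 9.65 and 10.9 CPM at 0 h. At both times Spry4 was higher in the cKO libraries. At 3 h it had 1.95 and 2.48 CPM in the cKO libraries, less than at 6 h, and 0.441 and 0.197 CPM in the control libraries. Its level in the cKO libraries thus fell by 3 h and was higher again at 6 h. The decay difference at 6 h was 2.84 ± 0.52 (adjusted p 9.45e-05), with 6 control reads in all at 6 h. Its relative Spry2 was higher too, at 0.51 ± 0.12 (adjusted p 0.00215), with 42.2 and 37.8 CPM in cKO and 35.7 and 30.6 CPM in control libraries at 6 h. Fgf4, the ligand that stem cells secrete to drive that pathway, had 83.2 and 91.5 CPM in the cKO libraries at 6 h and 292 and 269.5 CPM at 0 h, against 45.1 and 49.9 CPM in the control libraries at 6 h and 382 and 364 CPM at 0 h. Control libraries were above the cKO libraries at 0 h and below them at 6 h. Its decay difference was 1.29 ± 0.10 (adjusted p 3.52e-12) at 6 h and 1.18 ± 0.09 (adjusted p 5.4e-12) at 3 h.

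Sh3bgrl, a small thioredoxin-fold protein, moved in opposite directions: it rose in the cKO libraries (log2 change 0.83, adjusted p 0.00409) and fell in the control libraries (-1.26, adjusted p 0.0014). It had 16.9 and 13.9 CPM in the cKO libraries at 6 h and 9.44 and 7.26 CPM at 0 h, against 1.24 and 3.78 CPM in the control libraries at 6 h and 6.83 and 5.96 CPM at 0 h, and its decay difference was 2.099 ± 0.40 (adjusted p 0.000464). Both cKO libraries were the higher ones at 6 h by a wide gap. Mrps33, a protein of the mitochondrial small ribosomal subunit, had 7.13 and 9.61 CPM in the cKO libraries at 6 h and 4.56 and 5.58 CPM at 0 h, against 2.26 and 2.97 CPM in the control libraries at 6 h and 5.64 and 6.26 CPM at 0 h. It also rose in cKO libraries (0.79, adjusted p 0.00245) and fell in control libraries (-1.17, adjusted p 0.00015), giving 1.97 ± 0.34 (adjusted p 4.54e-05). Mkks, a chaperonin-like protein of the basal body, had a decay difference of 1.96 ± 0.40 (adjusted p 0.000443), which lost the call without replicate 2 of cKO at 6 h (1.34, adjusted p 0.115).

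RNAs encoded by the mitochondrial genome were present in the nuclear fraction and differed as well. Mitochondrial transcription uses its own polymerase, POLRMT, and the mRNAs encode subunits of the respiratory chain. Of 13 listed, 10 were tested, and 5 were called higher and 0 lower, in every library left out and every scaling tried, with a median of 1.24. mt-Nd1, a complex I subunit, had 307 and 304 CPM in the cKO libraries at 6 h and 2424 and 2267 CPM at 0 h, against 80.4 and 73.1 CPM in the control libraries at 6 h and 2008 and 1825 CPM at 0 h. mt-Cytb, of complex III, had 207 and 194 CPM in the cKO libraries at 6 h and 1488 and 1292 CPM at 0 h, against 68.9 and 76.1 CPM in the control libraries at 6 h and 1025 and 932 CPM at 0 h. For both genes the cKO libraries were higher at 0 h and further above at 6 h. The decay differences were 1.70 ± 0.26 for mt-Nd1 (adjusted p 0.00559) and 0.96 ± 0.10 for mt-Cytb (adjusted p 1.05e-07). mt-Co1, the catalytic subunit of complex IV, had 7462 and 7530.0 CPM in the cKO libraries at 6 h and 5953 and 6287 CPM at 0 h, against 2099 and 2113 CPM in the control libraries at 6 h and 4906 and 4755 CPM at 0 h. It fell in control libraries (-1.20, adjusted p 0.000133), and its change in cKO libraries was 0.29 (adjusted p 0.0767), for a decay difference of 1.49 ± 0.17 (adjusted p 0.00148). At 3 h mt-Co1 was not called (-0.31 ± 0.17, adjusted p 0.302). mt-Nd4 (1.19) and mt-Nd5 (1.28) completed the 5, which are 50% of the list, against 9.77% higher of all tested genes. The 10 tested members ran from -1.65 to 1.70. For 1 of them the changes in cKO libraries lay wholly below those in control libraries. Nuclear copies of mitochondrial sequence are set apart only by uniquely placed reads, and the share of mitochondria that remained with each nuclear fraction was not measured.

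Messages for ribosomes, proteasomes and translation factors were called higher more often than the background of 9.77%, at 34.5% for ribosomal proteins, 35.1% for the proteasome, 32.3% for translation factors and 24.3% for mitochondrial ribosomal proteins, and the medians of these lists stayed positive under each scaling. Abundant genes were called more often in general. In the most abundant of 5 CPM classes of protein-coding genes, those above 75.6 CPM, 21.2% were higher and 25.1% lower. In the most abundant of 3 CPM classes, 31.1% of genes with 1 to 9 exons were higher and 8.25% lower. With 10 to 19 exons the shares were 17.6% and 17.1%. Median exon numbers were 5 for each ribosomal protein list, 9 for the proteasome and 10 for translation factors. Among cytoplasmic ribosomal proteins 29 of 84 were higher and 10 lower (median 0.10). Rpl31 had 283 and 278 CPM in the cKO libraries at 6 h and 114 and 113 CPM at 0 h, against 156 and 152 CPM in the control libraries at 6 h and 137 and 122 CPM at 0 h. It gained share in both genotypes and gained more in the cKO libraries, where it was lower than in control libraries at 0 h. The decay difference was 1.06 ± 0.09 (adjusted p 7.23e-11). Rpl5, which carries 5S rRNA and binds MDM2, was 0.72 ± 0.07 (adjusted p 2.72e-09) and the p53-induced paralog Rps27l 0.91 ± 0.09 (adjusted p 3.98e-09). Members that went the other way included Rps16 (-0.66), Rpl38 (-0.67), Rpsa (-0.53) and Rpl9 (-0.48), so the subunits did not move as a block. Ribosomal protein genes have many processed pseudogenes and were counted on unique reads.

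Mitochondrial ribosomal proteins had 18 of 74 higher and 1 lower (median 0.16), with 12 to 20 higher as 1 library was left out; the lowest count came without replicate 2 of cKO at 6 h. Mrps17 reached 0.87 ± 0.15 (adjusted p 2.82e-05) and Mrpl42 0.86 ± 0.14 (adjusted p 1.26e-05), and the single lower member was Mrps28 (-0.43). Proteasome subunits had 13 of 37 higher and 6 lower (median 0.20). Psma1, of the 20S core, had 125 and 121 CPM in the cKO libraries at 6 h and 70.7 and 71.5 CPM at 0 h, against 93.5 and 88.3 CPM in the control libraries at 6 h and 109 and 101 CPM at 0 h. The cKO libraries were lower at 0 h and higher at 6 h, for a decay difference of 0.99 ± 0.10 (adjusted p 1.06e-09). Of the subunits of the alpha ring, Psma1, Psma2, Psma3, Psma4 and Psma6 were higher, and Psma5, Psma7 and Psma8 were not called. Psmb5, a catalytic beta subunit, was lower (-0.40). Leaving out 1 library gave 12 to 14 higher subunits, and 3 lower without replicate 1 of control at 0 h or 2 without replicate 2 of control at 6 h.

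Translation factors had 21 of 65 higher and 8 lower (median 0.12). Eif3e, a subunit of the eIF3 scaffold, had 201 and 193 CPM in the cKO libraries at 6 h and 158 and 134 CPM at 0 h, against 111 and 116 CPM in the control libraries at 6 h and 154 and 158 CPM at 0 h. It rose in cKO (0.43, adjusted p 9.36e-07) and fell in control libraries (-0.46, adjusted p 2.76e-07), for 0.89 ± 0.10 (adjusted p 8.49e-09). Eif2s1, the eIF2 alpha subunit that stress kinases phosphorylate, was 0.83 ± 0.09 (adjusted p 7.87e-09), with its partners Eif2s2 (0.60) and Eif2s3x (0.30) higher too. The scaffolds Eif4g1 (-0.37) and Eif4g3 (-0.57) were lower while Eif4g2 was higher (0.63 ± 0.06, adjusted p 1.64e-09). The count of higher members was 13 without replicate 2 of cKO at 6 h, and that of lower members was 5 without replicate 1 of cKO at 6 h, 5 without replicate 1 of control at 0 h and 4 without replicate 2 of control at 6 h. Nuclear-encoded respiratory chain genes had 21 of 86 higher and 7 lower with a median of 0.02, led by Ndufv2 (0.82 ± 0.11, adjusted p 6.71e-07), Ndufa4 (0.81 ± 0.09, adjusted p 3.42e-08) and Atp5c1 (0.61 ± 0.09, adjusted p 1.71e-06). Its lower members included Cox4i1 (-0.52) and Uqcr11 (-0.53). Of this list 24.4% were higher and 8.14% lower, against 9.77% and 9.35% of all tested genes. Without replicate 1 of control at 0 h 12 were higher, without replicate 1 of control at 6 h 14, and with spike-in scaling 11 were higher and the median was -0.03.

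Genes of the naive pluripotent state were called in both directions. Of 31 tested, 9 (29%) were called higher and 5 (16.1%) lower, against 9.77% and 9.35% of all tested genes (median 0.09). The higher ones were Fgf4, Lin28b, Dppa2, Sox2, Dppa4, Zfp57, Trim71, Fbxo15 and Tdgf1, and the lower ones Sall4, Pou5f1, Nr5a2, Dnmt3l and L1td1. Dppa2, which with Dppa4 activates the Dux locus and other early embryonic genes, had 141 and 149 CPM in the cKO libraries at 6 h and 123 and 115 CPM at 0 h, against 74.8 and 85.3 CPM in the control libraries at 6 h and 121 and 119 CPM at 0 h. The genotypes overlapped at 0 h and were apart at 6 h, giving 0.87 ± 0.10 (adjusted p 2.81e-08); Dppa4 was 0.55. Zfp57, which keeps imprints methylated, was 0.51 ± 0.08 (adjusted p 7.52e-06). Between the core factors the signs differed: Sox2 was 0.67 (adjusted p 0.000424) and Pou5f1 -0.30 (adjusted p 0.0247). The lower count was 1 without replicate 1 of control at 0 h or replicate 2 of control at 6 h, 2 without replicate 1 of cKO at 6 h and 3 without replicate 2 of cKO at 0 h. The counts were 13 higher and 2 lower with library size alone, 11 and 1 without a filter, and 15 and 3 with G+C-corrected offsets (median 0.18).

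Among genes of the 2-cell-like state, a rare stem cell state resembling the 2-cell embryo, 5 of 28 were higher and 0 lower (median 0.09), and 2 were higher without replicate 2 of cKO at 0 h or replicate 1 of control at 6 h, and 3 without either cKO 6 h library or either control 0 h library. Zscan4f, a marker of that state, had 13.2 and 11.7 CPM in the cKO libraries at 6 h and 15.1 and 15.6 CPM at 0 h, against 2.37 and 2.79 CPM in the control libraries at 6 h and 8.13 and 7.71 CPM at 0 h. The cKO libraries were above control at both times, and the decay difference was 1.27 ± 0.28 (adjusted p 0.001). Of 22 germline genes 4 were higher and 0 lower (median 0.27), or 7 higher without replicate 2 of control at 6 h and 1 lower without replicate 1 of cKO at 0 h or at 6 h. The 4 were Sycp1 and Hormad1 of the meiotic chromosome axis (1.08 ± 0.18, adjusted p 3.08e-05, and 0.87 ± 0.16, adjusted p 0.000157), Meioc (0.91) and the RNA-binding protein Dazl (0.77 ± 0.11, adjusted p 3.71e-06). Dazl had 72.0 and 69.96 CPM in the cKO libraries at 6 h and 64.3 and 68.2 CPM at 0 h, against 91.4 and 84.0 CPM in the control libraries at 6 h and 138 and 142 CPM at 0 h. Unlike the others it stayed lower in cKO libraries at both times, with a smaller gap at 6 h. The shares called higher were 17.9% of the 2-cell-like list and 18.2% of the germline list, against 9.77% of all tested genes.

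Among the lower genes, long multi-exon messages were prominent. Plec encodes plectin, a giant cytolinker of intermediate filaments (ENSMUSG00000022565.15, chr15:76170974-76232574). It had 160.4 and 162 CPM in the cKO libraries at 6 h and 136 and 158 CPM at 0 h, against 431 and 457 CPM in the control libraries at 6 h and 146 and 164 CPM at 0 h. The genotypes overlapped at 0 h and lay far apart at 6 h. Plec rose by 1.52 log2 in control libraries (adjusted p 2.01e-21), while its change in cKO libraries was 0.14 (adjusted p 0.0781), and the decay difference was -1.38 ± 0.09 (adjusted p 2.32e-13). Mrc2, a collagen-binding endocytic receptor, was -1.61 ± 0.24 (adjusted p 5.01e-06), and Adam11, a catalytically inactive member of the ADAM family, -1.48 ± 0.34 (adjusted p 0.00139). Snx29, a sorting nexin, had 31.8 and 34.5 CPM in the cKO libraries at 6 h and 36.0 and 38.6 CPM at 0 h, against 45.5 and 52.2 CPM in the control libraries at 6 h and 18.4 and 20.8 CPM at 0 h, a decay difference of -1.47 ± 0.16 (adjusted p 6.32e-09). Its cKO libraries were the higher ones at 0 h and the lower ones at 6 h. Ttc7 (-1.42 ± 0.28, adjusted p 0.000246) and the single-exon testis gene Rimbp3 (-1.45 ± 0.31, adjusted p 0.000766) were also among the 12 lowest.

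Pck2, the mitochondrial enzyme that makes phosphoenolpyruvate, and Rapgef3, the cAMP-activated exchange factor EPAC1, moved in opposite directions. Pck2 had 5.50 and 6.04 CPM in the cKO libraries at 6 h and 9.44 and 8.94 CPM at 0 h, against 26.6 and 25.3 CPM in the control libraries at 6 h and 11.2 and 11.4 CPM at 0 h. It fell in cKO libraries (-0.64, adjusted p 0.00369) and rose in control libraries (1.19, adjusted p 4.36e-09), for -1.83 ± 0.24 (adjusted p 3.9e-07). Rapgef3 was -1.55 ± 0.26 (adjusted p 2.29e-05), with 8.56 and 10.1 CPM in cKO and 11.8 and 13.9 CPM in control libraries at 6 h. Ccdc107 had the lowest value of the 12 genes chosen for low values, -1.98 ± 0.41 (adjusted p 0.0132), but its replicates differed widely and it lost the call without any of 3 libraries (replicate 2 of cKO at 0 h, adjusted p 0.0776, or replicate 1 or 2 of control at 6 h, 0.0501 and 0.0522). Ptp4a1, a phosphatase, was -1.47 ± 0.42 (adjusted p 0.0101) and lost the call without replicate 1 of cKO at 0 h (0.0648), replicate 2 of cKO at 6 h (0.156) or replicate 2 of control at 6 h (0.13).

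Jun, the AP-1 subunit and an immediate early gene, had 24.5 and 25.7 CPM in the cKO libraries at 6 h and 25.9 and 21.4 CPM at 0 h, against 20.7 and 22.6 CPM in the control libraries at 6 h and 7.04 and 7.18 CPM at 0 h. Its level was above control in the cKO libraries at 0 h and only slightly above at 6 h. Jun rose in control libraries (1.60, adjusted p 3.26e-11) and its change in cKO libraries was 0.09 (adjusted p 0.592), for -1.52 ± 0.21 (adjusted p 1.35e-06). Immediate early genes as a list had 4 of 34 higher (Spry4, Zfp36l2, Spry2, Klf10) and 3 lower (Klf6, Ier5, Jun). These shares of 11.8% and 8.82% were near the 9.77% and 9.35% of all tested genes. The counts were 2 and 1 without replicate 2 of cKO at 6 h, and 2 were higher without replicate 2 of control at 6 h.

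Of 15 tested genes in a list of endoderm markers, 7 (46.7%) were called lower and 0 higher (median -0.37). Of all tested genes 9.35% were lower and 9.77% higher. The list had a median of 20 exons, and 28.8% of protein-coding genes with at least 20 exons were lower. The 7 encode basement membrane or matrix proteins. Lama1, Lamb1 and Lamc1 are the chains of laminin-111, Col4a1 and Col4a2 of type IV collagen, and Nid1 and Sparc bind them. The count was 7 or 8 lower and 0 higher as 1 library was left out, and 7 lower with G+C-corrected offsets. Lama1 had 109.7 and 95.7 CPM in the cKO libraries at 6 h and 87.8 and 105 CPM at 0 h, against 258 and 273 CPM in the control libraries at 6 h and 142 and 148 CPM at 0 h. Col4a1 had 68.3 and 66.7 CPM in the cKO libraries at 6 h and 41.8 and 43.0 CPM at 0 h, against 208 and 226 CPM in the control libraries at 6 h and 63.8 and 75.8 CPM at 0 h. Both genes were lower in cKO libraries at both times, with a wider gap at 6 h. The decay differences were -0.79 ± 0.11 for Lama1 (adjusted p 1.82e-06), -0.96 ± 0.11 for Col4a1 (adjusted p 5.67e-08) and -0.56 ± 0.06 for Lamc1 (adjusted p 4.34e-09). The 5 defining endoderm markers (Gata4, Gata6, Sox17, Foxa2, Sox7) summed to between 2.65 and 6.93 CPM per library, with 1 or 2 of them at 0, so the label endoderm is not carried by its defining genes here.

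Fibroblast matrix genes behaved alike: 5 of 15 were lower and 0 higher (median -0.86), with 2 lower without replicate 2 of cKO at 6 h, and 3 without replicate 2 of control at 0 h or replicate 2 of control at 6 h. Fn1, fibronectin, had 4011 and 4176 CPM in the cKO libraries at 6 h and 3124 and 3281 CPM at 0 h, against 4840.0 and 4872 CPM in the control libraries at 6 h and 2423 and 2559 CPM at 0 h. The cKO libraries were higher at 0 h and lower at 6 h, for -0.61 ± 0.05 (adjusted p 4.83e-11). Col5a1, a fibrillar collagen, was -0.95 ± 0.15 (adjusted p 1.39e-05). Col1a1 was -1.69 ± 0.43 (adjusted p 0.00392) and lost the call without replicate 2 of cKO at 6 h (-1.39, adjusted p 0.0596). Thbs1, thrombospondin 1, was -1.47 ± 0.46 (adjusted p 0.0198) and lost it without replicate 2 of cKO at 6 h (-1.32, adjusted p 0.112), of control at 0 h (-1.29, 0.0852) or of control at 6 h (-0.96, 0.335). The 8 feeder markers (Col1a1, Col1a2, Col3a1, Thy1, Postn, Fbn1, Lum, Dcn) summed to 50.1 and 51.5 CPM in cKO at 6 h and 35.6 and 37.8 at 0 h, against 44.4 and 42.8 in control at 6 h and 19.08 and 20.24 at 0 h, with 1 to 3 markers at 0 in a library. Of the fibroblast list 33.3% were lower, against 9.35% of all tested genes. The list had a median of 23 exons, and 28.8% of protein-coding genes with at least 20 exons were lower. The part of feeder or other cells, or of exon number, in the matrix gene results was not tested.

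Chromatin regulators were called in both directions, 8 higher and 15 lower of 48. Their median was -0.04, and its sign changes with the scaling (-0.10 to 0.10). Their shares were 16.7% and 31.2%, against 9.77% and 9.35% of all tested genes and 21.2% and 25.1% of protein-coding genes above 75.6 CPM. The higher ones were the Polycomb subunits Rnf2, Pcgf6, Ezh2, Eed, Suz12 and Mtf2 and the deacetylases Hdac1 and Hdac2, between 0.29 and 0.89. The lower ones included the Polycomb cofactors Kdm2b and Jarid2, the remodellers Chd4 and Smarca4, the H3K4 demethylase Kdm5b, Kmt2d, Ehmt1, Trim28 and the DNA methylation factors Dnmt1, Dnmt3a, Dnmt3b and Uhrf1. Chd4, the NuRD ATPase, had 1288 and 1334 CPM in the cKO libraries at 6 h and 682 and 683 CPM at 0 h, against 2271 and 2280.0 CPM in the control libraries at 6 h and 759.5 and 742 CPM at 0 h. It gained share in both genotypes and gained less in cKO libraries, for -0.66 ± 0.06 (adjusted p 1.21e-10). Kdm2b, which takes a variant Polycomb complex to CpG islands, had 109 and 112 CPM in the cKO libraries at 6 h and 191 and 216 CPM at 0 h, against 139.8 and 142 CPM in the control libraries at 6 h and 144 and 144 CPM at 0 h. It was higher in cKO libraries at 0 h and lower at 6 h, with a change of -0.87 (adjusted p 6.99e-14) in cKO and -0.03 (adjusted p 0.714) in control libraries and a decay difference of -0.84 ± 0.10 (adjusted p 2.01e-08). Kdm5b was -0.62 ± 0.06 (adjusted p 9.71e-10). Leaving out replicate 2 of cKO at 6 h gave 5 higher and 14 lower.

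Partners of YTHDC1 in splicing and export had 9 of 31 higher and 5 lower (median 0.17). These were 29% and 16.1%, against 9.77% and 9.35% of all tested genes and 21.2% and 25.1% of protein-coding genes above 75.6 CPM. The higher ones were the kinases Clk1 and Clk4, which phosphorylate SR proteins, the export factors Thoc1, Thoc7 and Alyref, the splicing factors Srsf1, Srsf6 and Srsf10, and Emd. Srsf2, Srsf3, Clk3, Srrm2 and Safb were lower. YTHDC1 is known to bind SRSF3 and SRSF10, whose decay differences had opposite signs: -0.29 (adjusted p 0.0158) for Srsf3 and 0.52 (adjusted p 0.000785) for Srsf10. Safb, a scaffold attachment factor, had 68.7 and 74.0 CPM in the cKO libraries at 6 h and 132 and 129 CPM at 0 h, against 149 and 149.5 CPM in the control libraries at 6 h and 130.3 and 135 CPM at 0 h. The genotypes overlapped at 0 h, and at 6 h the cKO libraries held less than the control libraries by a clear gap. It fell in cKO (-0.86, adjusted p 4.41e-13) and rose in control libraries (0.17, adjusted p 0.0265), for -1.03 ± 0.10 (adjusted p 5.96e-10). Srrm2, a protein at the core of nuclear speckles, also fell in cKO (-0.15, adjusted p 0.00402) and rose in control libraries (0.67, adjusted p 5.28e-16), for -0.81 ± 0.06 (adjusted p 3.52e-12), and Thoc1 was 0.80 ± 0.14 (adjusted p 3.09e-05). Leaving out replicate 1 of cKO at 0 h gave 14 higher, and leaving out replicate 2 of control at 0 h gave 3 lower.

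Long noncoding RNAs of the nucleus had 9 of 50 higher and 9 lower, each 18%, against 9.77% and 9.35% of all tested genes. Neat1, the architectural RNA of paraspeckles (ENSMUSG00000092274.3, chr19:5824708-5845478), had 870.2 and 847 CPM at 0 h, 71.4 and 76.5 CPM at 3 h and 66.7 and 63.6 CPM at 6 h in the cKO libraries, against 212 and 208 CPM at 0 h, 56.4 and 48.3 CPM at 3 h and 42.1 and 40.4 CPM at 6 h in the control libraries. The cKO libraries held more Neat1 at every time, and most of the excess was gone by 3 h. Neat1 had the smallest adjusted p of its list, 5.73e-13, with a decay difference of -1.38 ± 0.10; at 3 h it was -1.53 ± 0.09 (adjusted p 3.55e-15). Malat1, a speckle RNA added after its values were seen, had 8515 and 8418 CPM in the cKO libraries at 6 h and 13270.0 and 12060.0 CPM at 0 h, against 5867 and 6063 CPM in the control libraries at 6 h and 8053 and 7447 CPM at 0 h and a decay difference of -0.20 ± 0.06 (adjusted p 0.0112), a call lost without replicate 2 of control at 0 h (-0.14, adjusted p 0.107) or of control at 6 h (-0.18, 0.0572). The Malat1 call was also lost with DESeq2 size factors (-0.17, adjusted p 0.0939), library size alone (-0.06, 0.508) or upper-quartile factors (-0.20, 0.0517), with the 8 libraries alone (-0.15, 0.0851), under both other filters and by the DESeq2 Wald test (0.142). Snhg3, a snoRNA host gene, was 1.48 ± 0.15 (adjusted p 1.08e-09) and Lncenc1, a stem cell lncRNA, 0.52 ± 0.08 (adjusted p 3e-06). Other called members were Platr27 (1.17), Platr3 (1.03) and Gas5 (0.41) on the higher side and Tug1 (-0.64), Tsix (-0.86) and Platr15 (-1.30) on the lower side.

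Short noncoding RNA genes had 1 of 21 higher (4.76%) and 5 lower (23.8%), against 9.77% and 9.35% of all tested genes. Rn7sk, the 7SK RNA that holds P-TEFb inactive, had 13890.0 and 14340.0 CPM in the cKO libraries at 6 h and 6182 and 5741 CPM at 0 h, against 10010.0 and 9717 CPM in the control libraries at 6 h and 5360.0 and 5124 CPM at 0 h, a decay difference of 0.33 ± 0.05 (adjusted p 1.36e-06). It gained share in both genotypes, and by 6 h more in the cKO libraries. At 3 h the order was the opposite, with 9487 and 9245 CPM in cKO and 11580.0 and 11740.0 CPM in control libraries and a decay difference of -0.50 ± 0.05 (adjusted p 2.1e-10). Scarna6, a Cajal body RNA, was -1.08 ± 0.10 (adjusted p 1.61e-10), and Rprl3, annotated as related to the RNA of RNase P, -3.56 ± 0.69 (adjusted p 0.000207) with 9 reads in all in the cKO libraries at 6 h. Snord17 (-2.20), Terc (-1.14), the telomerase RNA, and Scarna13 (-0.61) were lower too. The lower count was 3 without either cKO 0 h library, without replicate 1 of cKO at 6 h or without either control 6 h library.

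The m6A machinery was called in both directions. Of 15 genes of the methyltransferase complex and demethylases, 2 were higher (Wtap and Cbll1) and 2 lower (Zc3h13 and Rbm15). Of 15 readers 2 were higher (Elavl1, Fxr1) and 2 lower (Prrc2a, Igf2bp1). Each of these counts is 13.3% of its list, near the 9.77% higher and 9.35% lower of all tested genes. Zc3h13, which anchors the methyltransferase complex in the nucleus, had 63.2 and 63.5 CPM in the cKO libraries at 6 h and 129.6 and 118 CPM at 0 h, against 109 and 108 CPM in the control libraries at 6 h and 106 and 102 CPM at 0 h. Zc3h13 stood above control in the cKO libraries at 0 h and below at 6 h. The change was -0.97 (adjusted p 2.56e-14) in cKO and 0.06 (adjusted p 0.42) in control libraries, and the decay difference was -1.03 ± 0.10 (adjusted p 8.63e-10). Wtap, the adaptor of the complex, went the other way (0.56 ± 0.12, adjusted p 0.000727). Prrc2a was -0.51 ± 0.10 (adjusted p 0.000595). Without a single library these counts of 2 ran from 1 to 4, and each of the 8 libraries moved at least 1 of them. Cbll1 (0.83 ± 0.27, adjusted p 0.0281) lost the call without any of 5 libraries, with adjusted p from 0.0576 (without replicate 1 of control at 6 h) to 0.229 (without replicate 2 of cKO at 6 h), and Fxr1 (0.28 ± 0.08, adjusted p 0.0131) lost it when replicate 2 of cKO at 0 h was left out (0.0742), and likewise replicate 1 of cKO at 6 h (0.059) or replicate 1 of control at 0 h (0.0919). Fxr1 was 0.04 with G+C-corrected offsets (adjusted p 0.73) and 0.23 with spike-in scaling (adjusted p 0.0654), and at 3 h it was called in the opposite direction (-0.24 ± 0.08, adjusted p 0.0336).

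Nuclear RNA decay factors of the exosome, NEXT and PAXT had 4 of 24 higher (Exosc4, C1d, Tent4b, Dis3) and 5 lower (Exosc10, Exosc5, Srrt, Pabpn1, Zc3h18). The shares were 16.7% and 20.8%, against 9.77% and 9.35% of all tested genes. Zc3h18, which links the cap-binding complex to NEXT, had 83.6 and 85.3 CPM in the cKO libraries at 6 h and 116 and 116 CPM at 0 h, against 147 and 137 CPM in the control libraries at 6 h and 115 and 122 CPM at 0 h. The genotypes overlapped at 0 h, and at 6 h the cKO libraries were below control, for -0.71 ± 0.10 (adjusted p 1.91e-06). Srrt, the cap-associated protein ARS2, was -0.45 ± 0.07 (adjusted p 1.61e-05), and C1d, an exosome cofactor, 0.76 ± 0.14 (adjusted p 0.000153). The counts were 2 higher and 3 lower without replicate 2 of cKO at 0 h, and 2 higher without replicate 1 of control at 0 h or at 6 h.

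A list of Notch, WNT and FGF pathway genes had 6 of 35 higher and 9 lower (median -0.19). These were 17.1% and 25.7%, against 9.77% and 9.35% of all tested genes. The higher ones were Spry4, Fgf4, Spry2, Tcf7, Etv5 and Ctnnb1. Among the lower ones were the receptors Notch1 (-0.34), Notch2 (-0.76), Notch3 (-0.76) and Notch4 (-0.80) and the ligands Jag2 (-0.35) and Dll1 (-1.29), with Fgfr1, Tcf7l2 and Notum, while Jag1, Dll3, Hes1 and Hes6 were not called. Notch2 had 132 and 126 CPM in the cKO libraries at 6 h and 126 and 129.6 CPM at 0 h, against 215 and 210.0 CPM in the control libraries at 6 h and 119 and 129.7 CPM at 0 h. The genotypes overlapped at 0 h and were apart at 6 h, for -0.76 ± 0.09 (adjusted p 7.54e-08). Notch3 was -0.76 ± 0.12 (adjusted p 2.06e-05). The lower count was 5 without replicate 2 of cKO at 0 h, and the higher count was 3 without replicate 1 of control at 6 h.

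Genes of the integrated stress response had 2 of 28 higher (7.14%) and 8 lower (28.6%), against 9.77% and 9.35% of all tested genes (median -0.20). Beside Pck2 the lower ones were Trib3 (-1.23), Stc2, Cars, Aldh18a1, Slc7a5, Phgdh and Slc3a2. Asns, asparagine synthetase, was higher instead (0.45 ± 0.07, adjusted p 6.64e-06), with 471 and 459 CPM in cKO and 586 and 595 CPM in control libraries at 6 h. The lower count was 4 without replicate 2 of control at 6 h, and 5 without replicate 2 of cKO at 0 h, replicate 1 of cKO at 6 h or replicate 1 of control at 0 h, and with G+C-corrected offsets it was 3. Heat shock and chaperone genes had 4 of 24 higher (16.7%) and 7 lower (29.2%), with a median of 0.06. Hspb1 was lower (-0.80 ± 0.11, adjusted p 1.69e-06), as were Hsf1 (-0.78) and the ER lectin Calr (-0.48 ± 0.06, adjusted p 5.89e-07), and the HSP70 cochaperone Dnaja1 was higher (0.72 ± 0.12, adjusted p 1.57e-05). The lower count was 4 when replicate 1 of cKO at 6 h, replicate 1 of control at 0 h or replicate 2 of control at 6 h was left out, and the higher count was 7 when replicate 1 of cKO at 0 h was. The balance turned to 11 higher and 4 lower with library size alone (median 0.20) and to 9 and 4 without a filter.

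Targets of p53 had 5 of 28 higher (17.9%), among them the receptor Eda2r (0.80 ± 0.11, adjusted p 4.33e-07), Ei24 (0.61 ± 0.09, adjusted p 1.54e-06) and Ccng1 (0.52 ± 0.08, adjusted p 6.64e-06), and 1 lower. Imprinted genes had 3 of 37 higher (8.11%) and 4 lower (10.8%), near the 9.77% and 9.35% of all tested genes. The lower ones were Peg3 (-0.72 ± 0.07, adjusted p 4.34e-09), Igf2r (-0.51 ± 0.07, adjusted p 4.52e-07), Trappc9 (-0.93 ± 0.14, adjusted p 3.55e-06) and Dlk1 (-1.81). Peg3 had 395 and 388 CPM in the cKO libraries at 6 h and 357 and 354 CPM at 0 h, against 348 and 354 CPM in the control libraries at 6 h and 192 and 196 CPM at 0 h. The cKO libraries held more Peg3 at both times, and control libraries gained more between them. Housekeeping mRNAs had 6 of 25 higher (24.0%, against 9.77% of all genes) and 2 lower, with Tuba1a (0.74 ± 0.13, adjusted p 7.47e-05) and Hprt (0.61 ± 0.09, adjusted p 8.64e-06) higher and the glycolytic Pkm lower (-0.38 ± 0.07, adjusted p 0.000219). At 3 h the Pkm decay difference had the opposite sign and was larger, at 1.14 ± 0.07 (adjusted p 4.03e-12), with 3567 and 3578 CPM in cKO and 1867 and 1977 CPM in control libraries. Mesoderm and neuroectoderm genes had 2 of 16 higher (among them Zic2) and 2 lower (Nes at -0.87 ± 0.14, adjusted p 1.72e-05, and Tubb3). Each count is 12.5% of that list, also near the share of all tested genes. Zic2 (0.56 ± 0.16, adjusted p 0.00986) lost the call without replicate 2 of cKO at 6 h (adjusted p 0.154) or of control at 0 h (0.0512). At 3 h it was -0.54 ± 0.16 (adjusted p 0.0122), a call in the opposite direction. None of 14 tested trophoblast genes was called, with 0 higher and 1 lower at an unadjusted p below 0.05, and 1 was called lower without replicate 1 of cKO at 6 h. Without a single library the counts of 1 or 2 in the housekeeping, p53 and neuroectoderm lists ran from 0 to 4.

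**Figure D3:**
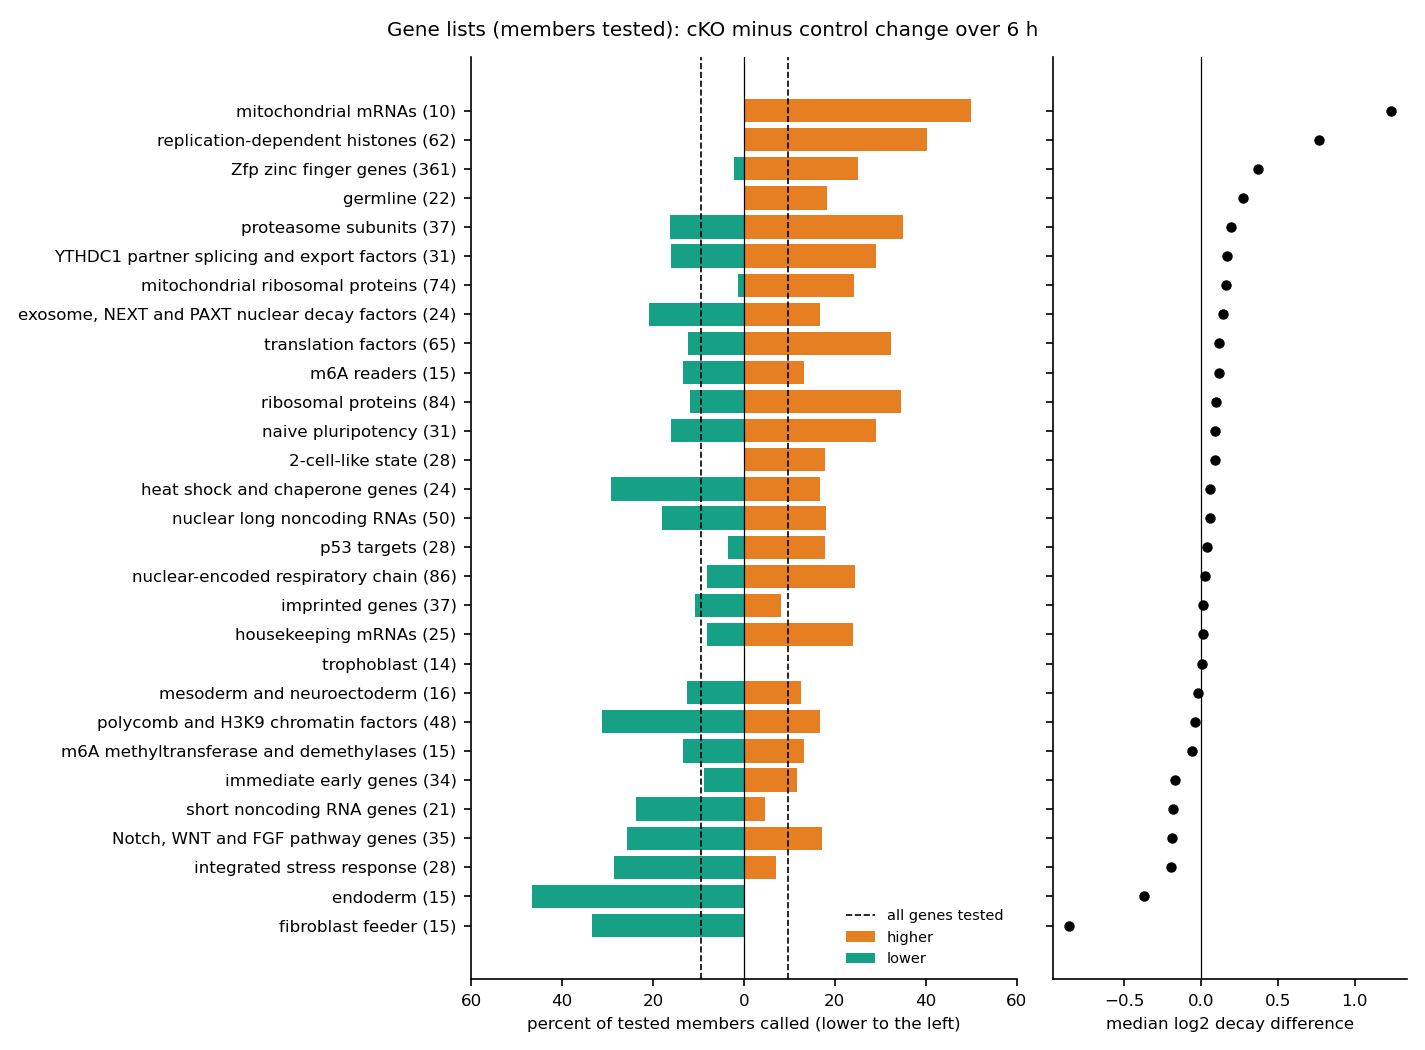
Percent of tested members called higher and lower in the decay difference (bars from 0), and median log2 decay difference, for 29 gene lists; dashed lines mark all tested genes at 9.77% higher and 9.35% lower. Mitochondrial mRNAs (5 of 10), histones (25 of 62), proteasome subunits (13 of 37) and ribosomal proteins (29 of 84) have the largest percents called higher, and endoderm (7 of 15) and fibroblast feeder genes (5 of 15) the largest called lower.

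The balance of several lists changed with the scaling. With library size alone, which raised the median of all genes, chromatin regulators had 14 higher and 10 lower, splicing and export partners of YTHDC1 18 and 2, long noncoding RNAs 14 and 6, nuclear decay factors 7 and 4, m6A readers 7 and 1, and integrated stress response genes 3 and 4. Zfp genes had 127 and 4, ribosomal proteins 39 and 6, proteasome subunits 21 and 2, and mitochondrial ribosomal proteins 28 and 0 on that scale. With spike-in scaling nuclear decay factors had 2 higher and 6 lower, and 2-cell-like genes 3 higher. With G+C-corrected offsets 2-cell-like genes had 2 higher. Endoderm genes and mitochondrial mRNAs had counts within 1.5 times of 7 lower and 5 higher under each scaling and filter.

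Several lists had 0 genes called in a direction by edgeR. At an unadjusted p below 0.05 there were likewise 0 lower histone, mitochondrial and 2-cell-like genes and 0 higher endoderm and feeder genes, and 2 lower germline genes. By the DESeq2 Wald test each of these counts was 0, with 22 histone genes and 6 mitochondrial mRNAs higher and 7 endoderm genes lower.

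Called protein-coding genes differed in base composition and exon number, which the choice of comparison did not use. Over 14147 protein-coding genes 11.6% were higher and 10.2% lower. Genes were put in 5 classes of equal size by the G+C content of the longest transcript. In the lowest class (31.0 to 44.1% G+C), 27.7% were higher against 2.05% lower (median 0.29). In the highest class (55.8 to 74.2%), 2.90% were higher against 16.5% lower (median -0.21), and the classes between were graded. Leaving out 1 library gave 1.34% to 4.24% higher and 10.7% to 19.6% lower in the highest class, the 1.34% without replicate 2 of cKO at 6 h, and its median was -0.11 without replicate 2 of cKO at 0 h. With library size alone that class had 6.25% higher and 10.4% lower (median -0.06). By exon number, 11.6% of single-exon genes were higher and 3.70% lower. The shares were 9.27% and 2.96% with 2 or 3 exons, 15.9% and 4.30% with 4 to 9, and 10.2% and 10.7% with 10 to 19. With at least 20 exons 5.24% were higher and 28.8% lower, or 11.4% and 18.3% with library size alone. Medians fell with each feature within every class of the other. In the lowest G+C class, however, genes with at least 20 exons were more often called higher (20.7%) than lower (3.61%), with a median of 0.14. Of genes in the lowest G+C class with 1 to 9 exons 30.3% were higher and 2.02% lower (median 0.40). Of 450 genes in the highest class with at least 20 exons, 0% were higher (0 also at an unadjusted edgeR p below 0.05) and 49.1% lower (median -0.51). The exon trend held at like expression: in the most abundant of 3 CPM classes, 8.56% of genes with at least 20 exons were higher and 41.4% lower, against 31.1% and 8.25% of genes with 1 to 9 exons. Zfp genes in the lowest G+C class had 40.0% of 185 higher and 0% lower (1 gene at an unadjusted edgeR p below 0.05), with a median of 0.67, against 26.8% and 2.19% of the other genes in that class (median 0.27). In the next class 12.9% of 62 Zfp genes were higher, against 14.6% of other genes, and the shares were 13% against 8.37%, 0% against 4.43% and 7.69% against 2.83% in the classes of rising G+C content that follow.

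**Figure D4:**
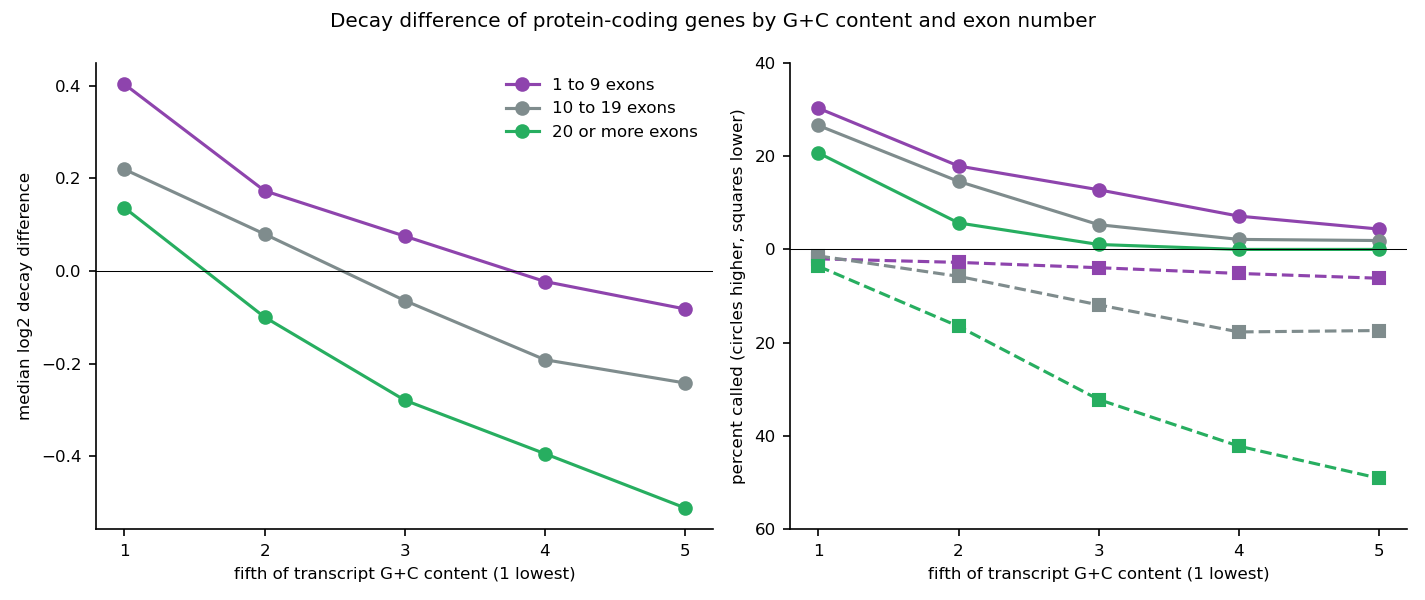
Median log2 decay difference and percent of protein-coding genes called higher and lower, by G+C class and by exon number class. The percent higher runs from 30.3% in the lowest G+C class with 1 to 9 exons to 0% in the highest with at least 20 exons, where 49.1% were lower.

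The G+C trend was also seen in the levels of single libraries. For genes with a mean of at least 50 reads, and relative to the control 0 h mean, the median log2 level of the lowest G+C class was -0.31 and -0.32 in cKO at 6 h and 0.10 and -0.04 at 0 h, against -0.65 and -0.63 in control at 6 h. That of the highest class was 0.24 and 0.36 in cKO at 6 h and -0.26 and -0.10 at 0 h, against 0.74 and 0.77 in control at 6 h. Both genotypes moved towards G+C-rich messages with time, and the cKO libraries moved less. With offsets that remove the G+C trend of each library, an alternative added after the data were seen, 2127 genes were higher and 1442 lower, and 2619 of the calls were shared with the 3422. In that fit 4.84% of genes with at least 20 exons were higher and 24.1% lower (median -0.16), against 18.2% and 3.19% of genes with 1 to 9 exons (median 0.17). Histone genes then had 33 higher and 0 lower, and integrated stress response genes 4 higher and 3 lower. The motif GGACT, a frequent core of m6A sites and searched on the transcript strand, was graded less: 16.5% of genes were higher and 6.71% lower in the lowest of 5 classes of sites per kb, against 7.42% and 10.1% in the highest.

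**Figure D5:**
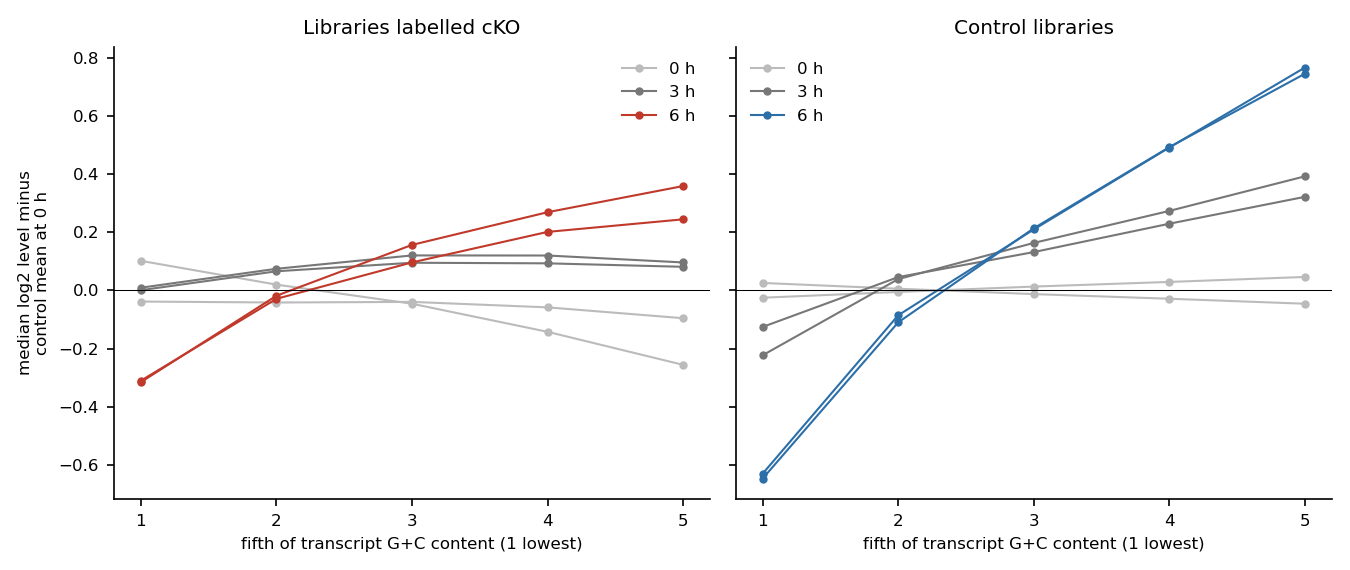
Median log2 level of protein-coding genes in each library minus the control 0 h mean, by G+C class, with the libraries labelled cKO in the left panel and control libraries in the right. At 6 h the cKO lines run from -0.31 and -0.32 to 0.24 and 0.36, and the control lines more steeply from -0.65 and -0.63 to 0.74 and 0.77.

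Gene classes outside protein-coding were called less often in the higher direction. Of 1337 long noncoding RNA genes 3.14% were higher and 4.49% lower (median -0.17). Of 968 single-exon gene models still to be experimentally checked (class TEC) 1.34% were higher and 10.5% lower (median -0.49).

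The 6 libraries of 2 Mettl3 knockout lines and their control, which hold no library of the decay difference and had no actinomycin D, gave an independent readout of the called genes. METTL3 is the catalytic subunit of the m6A methyltransferase. Of 21802 genes tested there, 5205 (23.9%) were higher and 5564 (25.5%) lower in the knockout lines than in control. Of the genes with a higher decay difference 1730 were tested, and 46.0% were higher and 21.2% lower in the Mettl3 knockout lines (median 0.11, against -0.03 for all genes). Of those with a lower decay difference 1649 were tested, and 29.6% were higher and 40.6% lower (median -0.06), against 25.2% and 27.6% of genes not called. Among genes with at least 50 reads in 2 libraries, 31.2% of all were higher and 31.5% lower. The shares were then 46.3% and 22.5% for a higher decay difference, and 30.6% and 42.9% for a lower one. Among genes described above, Zfp97 (0.74 ± 0.07, adjusted p 4.39e-16), Zfp141 (0.95 ± 0.05, adjusted p 4.04e-27), Hist1h4h (0.54 ± 0.06, adjusted p 7.19e-13) and mt-Co1 (1.03 ± 0.09, adjusted p 0.00331) were higher in the Mettl3 knockout lines. The Zfp and histone genes were not uniform there. Zfp40 was lower (-0.64 ± 0.10, adjusted p 6.59e-08), and Zfp748 (0.05 ± 0.07, adjusted p 0.625) and Hist1h2ah (-0.15 ± 0.19, adjusted p 0.548) were not called. Plec (-0.51 ± 0.03, adjusted p 1.47e-30), Lama1 (-0.42 ± 0.03, adjusted p 1.92e-25) and Safb (-0.62 ± 0.03, adjusted p 1.09e-30) were lower there. Fgf4 (-0.71 ± 0.03, adjusted p 2.1e-37) and Zscan4f (-1.08 ± 0.25, adjusted p 0.000215) were lower in the Mettl3 lines although their decay differences were higher, and Fn1 (0.72 ± 0.02, adjusted p 4.51e-46) was higher although its decay difference was lower. With spike-in scaling the median of all genes in the Mettl3 comparison was 0.34, and 82.8% of the genes with a higher and 62.5% of those with a lower decay difference were then higher in the knockout lines, against 48.9% of all. Whether base composition links the 2 comparisons was not tested.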

How the data were processed

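Nuclear RNA was measured in 18 libraries, of which 8 enter the decay difference. The deposited values are whole-number read counts for each gene without normalization, made per the submitters' processing notes with CASAVA, Trimmomatic 0.38, HISAT2 2.1.0 and HTSeq on mm10. Which strand setting and gene models were used in counting is not given in the sources used here. Genes that overlap on opposite strands (42 of the 107 named) are therefore uncertain. Reads with several placements enter no gene. Reads outside annotated genes were 18.1% to 53.6% of uniquely placed reads per library and were kept out of library sizes and tests, as were 92 spike-ins.

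From these deposited counts, log2 changes and CPM levels were computed with edgeR 4.0.16 in R 4.3.3 (TMM, default filter with a minimum count of 10, robust quasi-likelihood F test, Benjamini-Hochberg adjustment). The 12 Ythdc1 libraries, 3 h groups included, shared 1 estimate of the spread, and the contrast used 8; the 6 Mettl3 libraries were fitted separately. The biological coefficient of variation was 6.52% and the median SE of a decay difference 0.27. The fits were tested on simulated counts. Same-numbered libraries deviated together weakly or not at all (correlations from -0.01 to 0.21), so the numbers were not used as pairs. No 2 libraries of a group agreed within sampling noise (chi-square per degree of freedom 2.51 to 4.00).

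Named genes are Ythdc1, the 12 highest and 12 lowest called genes with a mean of at least 50 reads, a regular symbol and no overlap of the genotypes' changes, and up to 3 called members per list by p; other list members are given to describe a list, and Malat1, Gm10800, Gm10801, Gm26917 and Gm20939 were added after their values were seen. Members and lists were chosen with earlier results of these data known, so lists are described by counts and medians and have no test. Alternatives were other scalings (DESeq2 1.42.0 size factors, library size, upper quartile, spike-ins), other filters, the DESeq2 Wald test, a test against a 1.2-fold change, the replicate number as a block, the 8 libraries alone, thinning to 4950973 reads, leaving out each library and, added later, G+C-corrected offsets. Positions and transcripts are from GENCODE M21, where 54409 of 54446 identifiers were found.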

Additional observations from a re-analysis of the deposited data

Results flagged for a closer look

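The change over 6 h differed between the genotypes, by edgeR's test of the interaction itself, for 1749 genes with a higher and 1673 with a lower decay difference in the libraries labelled cKO. Among the genes named above, 16 had changes that were called in each genotype and ran in opposite directions. In 9 of them the nuclear share rose in cKO and fell in control libraries: Sh3bgrl (decay difference 2.099), Mrps33 (1.97), Psma1 (0.99), Rps27l (0.91), Eif3e (0.89), Dppa2 (0.87), Mrps17 (0.87), Eif2s1 (0.83) and Psmd12 (0.70). In the other 7 it fell in cKO and rose in control libraries: Prrc2a (-0.51), Zc3h18 (-0.71), Srrm2 (-0.81), Safb (-1.03), Rapgef3 (-1.55), Pck2 (-1.83) and Rprl3 (-3.56). Directions are set against the typical gene, as TMM scales it.

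Reads outside annotated genes, which enter no comparison of genes, numbered 1.24 and 1.19 per gene read in the cKO libraries at 0 h, above the 1.07 and 1.05 in the control libraries at 0 h. They fell by 2.27 log2 in cKO and by 1.79 in control libraries over 6 h, a difference of -0.49, which was not tested. With groups of 2 libraries, single libraries were not tested for standing apart.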

How the results depend on the processing

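Of 3422 genes called, all genes also called under an alternative kept their direction, under every alternative run. The total was 1571 when tested against a 1.2-fold change (823 higher, 748 lower) and stayed within 1.5 times under the others. With all 8 libraries these ran from 2500 with the DESeq2 Wald test to 3931 with library size alone. The higher count was 2938 with library size alone and 2672 without a filter, and the lower count 993 with library size alone, 879 without a filter and 1040 with the DESeq2 Wald test. With library size alone 74.7% of calls were higher, against 51.1% with TMM factors, 42.1% with spike-in scaling and 60.1% with the 8 libraries alone, and the median of all genes was 0.11, against -0.03. Leaving out 1 library gave totals of 2490 to 3526, with 1193 to 1849 higher and 1132 to 1677 lower, and 9141 to 10414 calls in the Mettl3 comparison. The lowest total and the lowest higher count came without replicate 2 of cKO at 6 h, the deepest of the 8 libraries; thinning all libraries to 4950973 reads gave 2564 calls. With the replicate number as a block, although the numbers were not shown to pair the libraries, 3715 genes were called, 1903 higher and 1812 lower, 3388 of them shared with the 3422, and 10616 in the Mettl3 comparison. G+C-corrected offsets, chosen after seeing the data, gave 3569 calls. Of 2139 alternative values of the 107 named genes, 2070 kept the call, 69 lost it in 19 genes, and 0 reversed. Alternatives reused the same libraries, on which all 107 had been called, so these counts are no independent support. Low counts limit the size of the largest histone and Spry4 differences, and with 2 libraries a group small differences are missed.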

Other observations

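Of 4 gene models with Gm numbers picked after their values were seen, Gm10800 and Gm10801 had decay differences larger in size than any gene chosen by rule. Gm10800 had 366 and 286 CPM in the cKO libraries at 6 h and 110.4 and 69.8 CPM at 0 h, against 986 and 1006 CPM in the control libraries at 6 h and 15.93 and 15.96 CPM at 0 h. Its decay difference was -4.12 ± 0.50 (edgeR adjusted p 0.00195), and that of Gm10801 was -4.43 ± 0.54 (adjusted p 0.002). Both gained share in each genotype and their 0 h levels were higher in cKO libraries. Gm20939 had 31.8 and 33.3 CPM in cKO at 6 h and 47.0 and 39.3 CPM at 0 h, against 4.97 and 2.43 CPM in control at 6 h and 43.2 and 42.2 CPM at 0 h, a decay difference of 3.18 ± 0.27 (adjusted p 7.91e-08). Gm26917 fell steeply in both genotypes, to 3503 and 3756 CPM in cKO and 5408 and 5404 CPM in control libraries at 6 h, against 63090.0 and 65780.0 CPM in cKO and 51820.0 and 55220.0 CPM in control libraries at 0 h, with a decay difference of -0.84 ± 0.13 (adjusted p 0.00528). What these models encode is not annotated in the files used, and repeated sequence could not be checked.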
